A study of Mus musculus with 73 samples.

Results

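The 4 Reg lectin genes Reg1, Reg3a, Reg3b and Reg3g and the antimicrobial genes Il18, Nlrp6 and Lypd8, which have been placed in a module of the lower villus, were followed through mouse jejunum in 3 kinds of libraries. The genes were chosen by name, with earlier results of these data known, and no measured value was a criterion of the choice. All 7 were present among the 17399 genes of the bulk epithelial table, the 20882 of the laser capture table and the 21058 of the single-cell table.

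The study asked how stromal cells at the villus tip, the Lgr5+ telocytes, relate to gene expression in the epithelium above them. Bulk epithelium came from the jejunum of male Lgr5(GFP-ires-DTR/+) mice, labelled as 4 months of age, in which the diphtheria toxin receptor is driven by the Lgr5 locus. 4 mice received diphtheria toxin (DT) and 4 received saline (mock), all carried the same allele, and cells were released with EDTA 48 h later. Laser capture microdissection (LCM) of stroma from crypt, villus bottom, villus center and villus tip, and single cells sorted from the jejunum, came from C57BL/6 mice labelled as 3 months of age, with no further treatment given in the labels. Because the receptor is expressed from the Lgr5 locus, the toxin also acts on the Lgr5+ stem cells of the crypt, so that the loss of telocytes and the loss of stem cells cannot be told apart in these mice.

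Reg proteins are small secreted C-type lectins. Reg3g binds the peptidoglycan of Gram-positive bacteria, Reg3b belongs to the same subfamily, and both are made by enterocytes and Paneth cells and are known to be induced by interleukin 22 through STAT3 and by bacterial signals through MyD88. Nlrp6 is a NOD-like receptor that assembles with the adaptor Pycard into an inflammasome, which activates Caspase-1, and Caspase-1 in turn cleaves the precursor of interleukin 18, the cytokine encoded by Il18. Lypd8 is a glycosylated, membrane-anchored protein that binds bacterial flagella in the gut lumen.

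In the GENCODE vM21 annotation of GRCm38, the 4 lectin genes lie in one block of chromosome 6, between positions 78370657 and 78468872. This block of 98.2 kb holds 6 Reg genes, the other two being Reg2 and Reg3d, and no other protein-coding gene. Reg3b (chr6:78370657-78373466), Reg3a (chr6:78380709-78383827) and Reg1 (chr6:78422711-78428667) are on the plus strand and Reg3g (chr6:78466269-78468872) is on the minus strand. Il18 is on chromosome 9 (chr9:50554827-50581840), Nlrp6 on chromosome 7 (chr7:140920902-140929192) and Lypd8 on chromosome 11 (chr11:58379043-58390728), all on the plus strand. The annotated transcripts of Reg3b and Reg3g had 5 stretches of 31 bases in common, 0.595% of those of Reg3b and 0.675% of those of Reg3g, while no other pair of Reg genes had any, so that few reads could have been assigned to the wrong lectin.

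The 250 bases before the RefSeq start of each of the 4 lectin genes are given because these genes share a locus and Reg3b and Reg3g moved together in every data set below. The sequences are RefSeq's on GRCm38.p6, read 5′ to 3′ on the strand of the gene, and capitals mark matches to TTCNNNGAA, the core of a STAT site, which is its own reverse complement, and to TATAAA on either strand. The windows were chr6:78370635-78370884 (plus strand) for Reg3b, chr6:78468875-78469124 (minus strand) for Reg3g, chr6:78380459-78380708 (plus strand) for Reg3a and chr6:78425733-78425982 (plus strand) for Reg1.
Reg3b: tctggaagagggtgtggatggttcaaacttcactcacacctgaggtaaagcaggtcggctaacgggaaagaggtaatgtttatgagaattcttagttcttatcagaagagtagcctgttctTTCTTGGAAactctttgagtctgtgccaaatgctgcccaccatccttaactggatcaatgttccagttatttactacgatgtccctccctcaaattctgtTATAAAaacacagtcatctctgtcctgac
Reg3g: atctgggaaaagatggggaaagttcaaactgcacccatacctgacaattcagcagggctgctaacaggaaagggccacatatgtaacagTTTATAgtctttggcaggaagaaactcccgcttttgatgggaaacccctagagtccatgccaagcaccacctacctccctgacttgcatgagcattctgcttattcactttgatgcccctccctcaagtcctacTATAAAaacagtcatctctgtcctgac
Reg3a: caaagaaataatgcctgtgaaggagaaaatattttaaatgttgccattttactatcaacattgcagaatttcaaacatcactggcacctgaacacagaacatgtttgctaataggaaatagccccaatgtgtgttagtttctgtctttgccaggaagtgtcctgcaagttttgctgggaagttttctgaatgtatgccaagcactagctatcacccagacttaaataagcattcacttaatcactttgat
Reg1: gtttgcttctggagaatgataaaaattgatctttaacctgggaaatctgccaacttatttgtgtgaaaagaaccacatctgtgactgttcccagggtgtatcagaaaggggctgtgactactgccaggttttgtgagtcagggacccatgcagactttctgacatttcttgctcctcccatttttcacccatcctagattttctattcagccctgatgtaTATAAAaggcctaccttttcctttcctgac
Reg3b had TTCNNNGAA from 129 to 121 bases before the start, which none of the other 3 windows had, and TATAAA from 29 to 24 bases before it. Reg3g had TATAAA from 27 to 22 bases before the start and, on the opposite strand, from 161 to 156 bases before it. Reg1 had TATAAA from 30 to 25 bases before the start, and Reg3a had neither motif. Over all 32851 RefSeq windows of the same length, 7.02% held TTCNNNGAA and 12.4% held TATAAA. In a global alignment, Reg3b and Reg3g were identical at 173 of 250 bases (69.2%), whereas the other 14 pairs of the 6 genes of the block were identical at 51.6% to 62.4%. The start differs between the annotations for some of the genes. The GENCODE model of Reg3b begins inside the printed window, and the printed window of Reg1 lies wholly inside the GENCODE model of that gene, downstream of its start.

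The bulk libraries held 748458 to 4210158 unique molecular identifiers (UMIs, counts of distinct captured molecules), and values are in CPM, counts scaled to a common library total, after TMM scaling. Lgr5 itself was low, at 45.0, 77.3, 10.7 and 24.5 CPM in mock mice 1 to 4 and 47.2, 32.9, 6.30 and 12.6 CPM in DT mice 1 to 4, so that the groups overlapped. Mice 1 and 2 of each group formed batch a and mice 3 and 4 formed batch b, as the study lists them, and batch was a term of the fit. The summed level of 7 epithelial markers was 5717 to 6880 CPM in mock and 5822 to 6219 CPM in DT. The summed level of 8 Paneth cell markers was 5535 to 16233 CPM in mock and 890 to 2602 CPM in DT, and 3 of the 8 fell, while that of 6 tuft cell markers was 47.6 to 84.4 CPM against 5.89 to 10.8 CPM, and all 4 that were tested fell. Their part in the values of the members was not tested.

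None of the 7 genes was called after DT. edgeR's quasi-likelihood test called 32 of 8986 genes at an adjusted p of 0.05 (0.356%), 2 higher (0.0223%) and 30 lower (0.334%), and 1551 genes had an unadjusted p under 0.05, none of them a member. DESeq2 called 159 genes, again no member. The values of the 4 DT mice and the 4 mock mice overlapped for each of the 7 genes, against 3.08% of all genes tested for which they did not. The median log2 fold change (DT over mock) of the members was 0.31, beside 0.00 over all genes. In bulk epithelium, fewer cells that express a gene and less RNA per cell cannot be told apart.

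**Figure D1:**
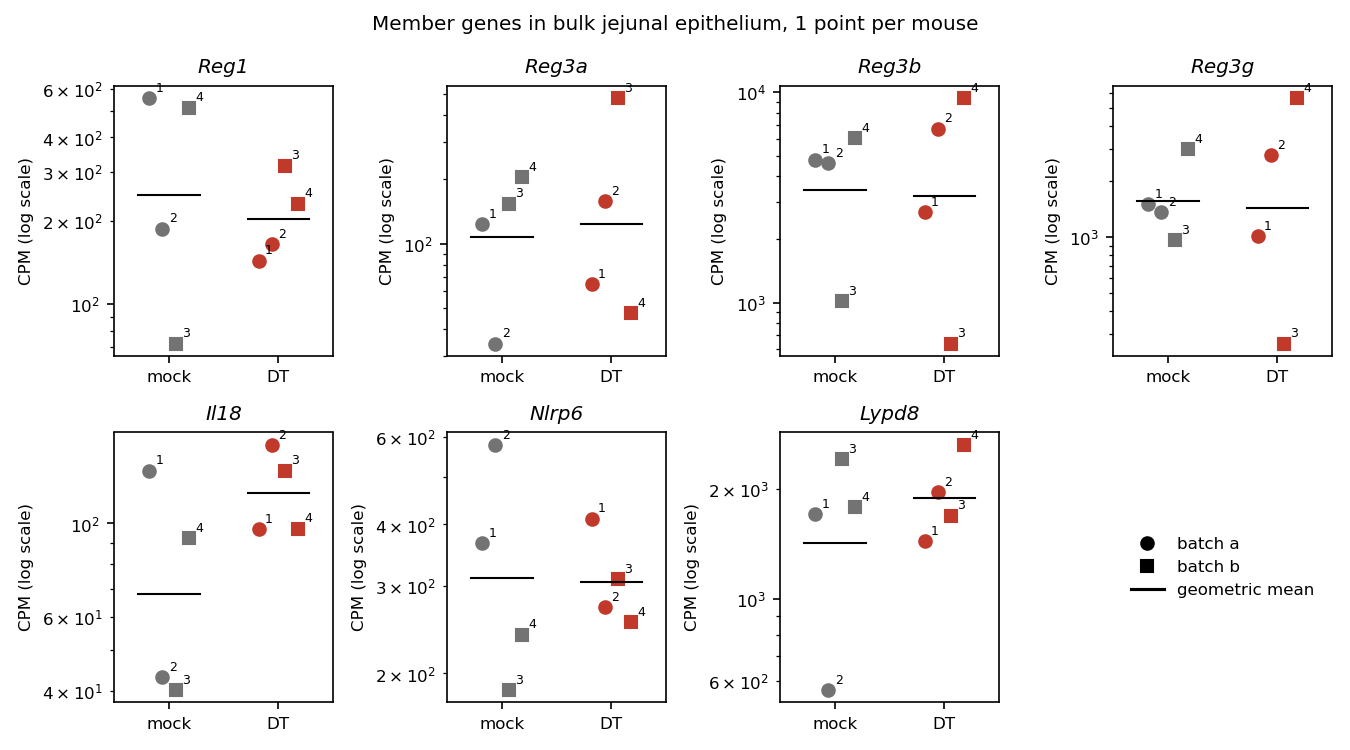
Level of each of the 7 genes in the 8 bulk epithelial samples, in CPM on a log axis, with mock and DT mice side by side. Each point is 1 mouse, and the points of both groups overlap for all 7 genes.

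Reg3b was the most abundant member by UMIs. It was at 4789, 4594, 1017 and 6086 CPM in mock mice 1 to 4 and at 2704, 6733, 638 and 9381 CPM in DT mice 1 to 4. The highest and the lowest value were both in DT mice, 14.7-fold apart, and the 4 mock values lay between them. The log2 fold change was 0.25 ± 0.81 (SE, n = 4 and 4), with a 95% interval of −1.63 to 2.13 (edgeR, adjusted p = 0.896), so that a 4-fold rise was inside the interval. Reg3g, its closest relative, was at 1515, 1367, 959 and 2999 CPM in mock and at 1008, 2776, 266 and 5633 CPM in DT. DT mouse 3 was lowest and DT mouse 4 highest, as for Reg3b, with a difference of 21.2-fold between them. Its log2 fold change was 0.48 ± 0.80 (95% interval −1.38 to 2.34, edgeR, adjusted p = 0.778). Without DT mouse 4 the values were −0.86 for Reg3b and −0.68 for Reg3g, and neither was called.

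The other lectins did not follow them. Reg3a, of the same subfamily, was at 123, 34.2, 154 and 204 CPM in mock and at 65.0, 158, 479 and 47.5 CPM in DT. DT mouse 3, the lowest for Reg3b and Reg3g, was the highest for Reg3a. Its log2 fold change was 0.51 ± 0.72 (95% interval −1.20 to 2.23, edgeR, adjusted p = 0.737). Reg1, the only member of its subfamily in the set, was at 555, 187, 71.8 and 513 CPM in mock and at 143, 164, 317 and 231 CPM in DT. The 4 DT values lay inside the range of the mock values, and the log2 fold change was −0.68 ± 0.62 (95% interval −2.10 to 0.75, edgeR, adjusted p = 0.582). Within batches, the log2 fold change of Reg1 was −1.27 in batch a and −0.11 in batch b.

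Il18 was at 134, 43.1, 40.1 and 92.3 CPM in mock and at 97.0, 154, 134 and 97.2 CPM in DT. Mock mice 2, 3 and 4 were below all DT mice and mock mouse 1 was among them. The log2 fold change was 0.64 ± 0.34 (95% interval −0.11 to 1.40, edgeR, adjusted p = 0.348), and it was 0.48 in batch a and 0.80 in batch b. When no genes were filtered for low counts, the adjusted p of Il18 was 0.0488, with 635 of 15502 genes called, and over 16 alternatives it ranged from 0.0488 to 0.913. Nlrp6, the sensor upstream of Il18, was at 367, 580, 185 and 240 CPM in mock and at 411, 272, 310 and 254 CPM in DT. All DT values lay inside the mock range, and the log2 fold change was −0.02 ± 0.26 (95% interval −0.59 to 0.55, edgeR, adjusted p = 0.975). The 2 batches had opposite signs for Nlrp6, at −0.47 in batch a and 0.40 in batch b. Lypd8 was at 1703, 566, 2401 and 1784 CPM in mock and at 1438, 1958, 1688 and 2631 CPM in DT. Mock mouse 2 was far below the other 7 mice, and the log2 fold change was 0.31 ± 0.34 (95% interval −0.44 to 1.06, edgeR, adjusted p = 0.650).

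The lectins were among the most variable genes of the epithelium between mice of one group and batch. The residual standard deviation on the log2 scale, after group and batch were fitted, was 1.57 for Reg3g, 1.53 for Reg3b, 1.30 for Reg3a and 1.15 for Reg1, beside a median of 0.32 over the 8986 genes. In the order of this spread they ranked 51, 57, 102 and 137. Among the 2863 genes with a mean log2 CPM of at least 6, Reg3g ranked 3, Reg3b 5, Reg3a 9 and Reg1 17. Il18 ranked 98 (0.69), Lypd8 151 (0.62) and Nlrp6 605 (0.42) of the 2863.

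**Figure D2:**
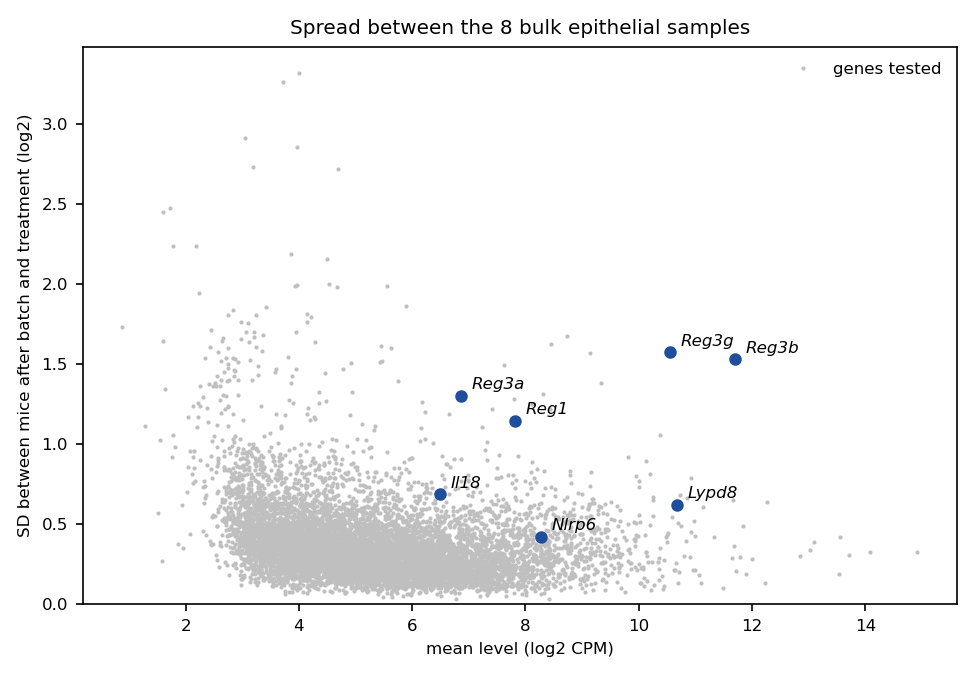
Residual standard deviation of log2 CPM after group and batch (vertical axis) against mean log2 CPM (horizontal axis) for the 8986 genes tested in bulk epithelium, with the 7 members named. Reg1, Reg3a, Reg3b and Reg3g lie at 1.15 to 1.57, above most genes of their level, whose median was 0.28 at a mean log2 CPM of at least 6.

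Over the 8 mice, log2 CPM centred on each batch gave a Pearson correlation of 0.96 between Reg3b and Reg3g. Correlations are given as descriptions of 8 samples that include both groups. Reg3a went the other way, at −0.51 with Reg3b and −0.55 with Reg3g. Lypd8 and Nlrp6 were at −0.83, and Il18 was at 0.57 with Reg1, 0.56 with Reg3a and 0.55 with Lypd8. The genes closest to each member, by the same measure over all genes tested, were Nup210 (0.97), Reg3g (0.96) and Ythdc2 (0.95) for Reg3b, and Nup210 (0.99), Gm37988 (0.98) and Reg3b (0.96) for Reg3g. For Reg1 they were Slc13a1 (0.93), Bco2 (0.91) and Sgk1 (0.90), and for Reg3a they were Gchfr (0.97), Gstm6 (0.97) and Ugt1a10 (0.97). For Il18 they were Polb (0.99), Yipf1 (0.98) and Gapdh (0.97), for Nlrp6 Zdhhc9 (0.98), Zfp445 (0.97) and Mtfmt (0.97), and for Lypd8 Dlst (0.99), Vdac2 (0.99) and Elovl7 (0.99). Reg3b and Reg3g were the only members found among the 3 closest genes of another member.

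The ratio of Reg3g to Reg3b UMIs was 0.316, 0.298, 0.943 and 0.493 in mock mice 1 to 4 and 0.373, 0.412, 0.416 and 0.601 in DT mice 1 to 4. Mock mouse 3 was highest and the DT values lay inside the mock range. The mean log2 ratio was −1.18 ± 0.30 (SD) in DT and −1.13 ± 0.77 (SD) in mock, a difference of −0.05 (exact permutation test, two-sided, p = 0.943, the smallest possible being 0.0286). The difference was 0.35 in batch a and −0.45 in batch b.

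Genes that act around the members were also followed. Of 10 genes of the interleukin 22 and STAT3 arm, 6 were tested and none was called, and all 6 had a log2 fold change below 0, with a median of −0.36. The lowest unadjusted p-values were those of Nfkbiz, a nuclear inhibitor of NF-kappa B, at −0.45, Stat3 at −0.41, the receptor subunit Il10rb at −0.30 and the feedback inhibitor Socs3 at −0.75, with adjusted p-values of 0.240 to 0.456 (edgeR). Of 19 genes of the inflammasome and interleukin 18 arm, 15 were tested and none was called, 11 of them being below 0, with a median of −0.19. Naip6, Naip5 and Nlrp9b, sensors of bacterial or viral ligands, were at −0.62, −0.58 and −1.06, and the adaptor Pycard was at 0.75. Reg4 was the only other Reg gene tested, at −0.39 ± 0.32 (edgeR, adjusted p = 0.528). Of 23 other epithelial antimicrobial genes, 13 were tested and 1 fell, with a median of 0.23. This was Itln1, a lectin of Paneth and goblet cells that is also one of the Paneth cell markers, at 1071 ± 575 CPM (SD, n = 4) in mock and 234 ± 93.4 CPM in DT, a log2 fold change of −2.12 ± 0.37 (edgeR, adjusted p = 0.0341).

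The LCM libraries were made from stroma, and the source of the members' RNA in them was not tested, so that epithelial markers are given beside the zones. Of 7 epithelial markers 4 were used (Krt19, Vil1, Cdh1 and Cldn7), since Epcam, Krt8 and Krt18 were not analysed here. Values are in ppm, the TPM (transcript level per length and library) of a gene rescaled to the same total after genes abundant in enterocytes and genes above 1% of a sample were taken out of the total. Reg3b, Reg3g, Nlrp6 and Lypd8 are themselves among those enterocyte genes, and Reg1, Reg3a and Il18 are not. The zone values of the members are therefore not read as levels in stromal cells. Those enterocyte genes made up 4.98% to 41.0% of a sample, and the 4 epithelial markers summed to 297 to 2328 ppm in crypt, 403 to 1544 ppm in villus bottom, 707 to 1447 ppm in villus center and 308 to 2970 ppm in villus tip. The 8 Paneth cell markers, which belong to the crypt, reached 251645 ppm in a villus tip sample and 53350 ppm in a villus center sample. 29 sections were averaged into 18 profiles of 1 zone in 1 mouse, 3 of crypt and 5 of each villus zone, and their sequencing depth is unknown.

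No gene was called between zones. limma with the mouse as a block tested 13933 genes and called 0 (percent called 0) between villus bottom and crypt, villus tip and crypt, and villus tip and villus bottom, with 380, 453 and 1110 genes at an unadjusted p under 0.05. The smallest adjusted p over all genes was 0.137, between tip and bottom. All 7 members were tested in each comparison.

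**Figure D3:**
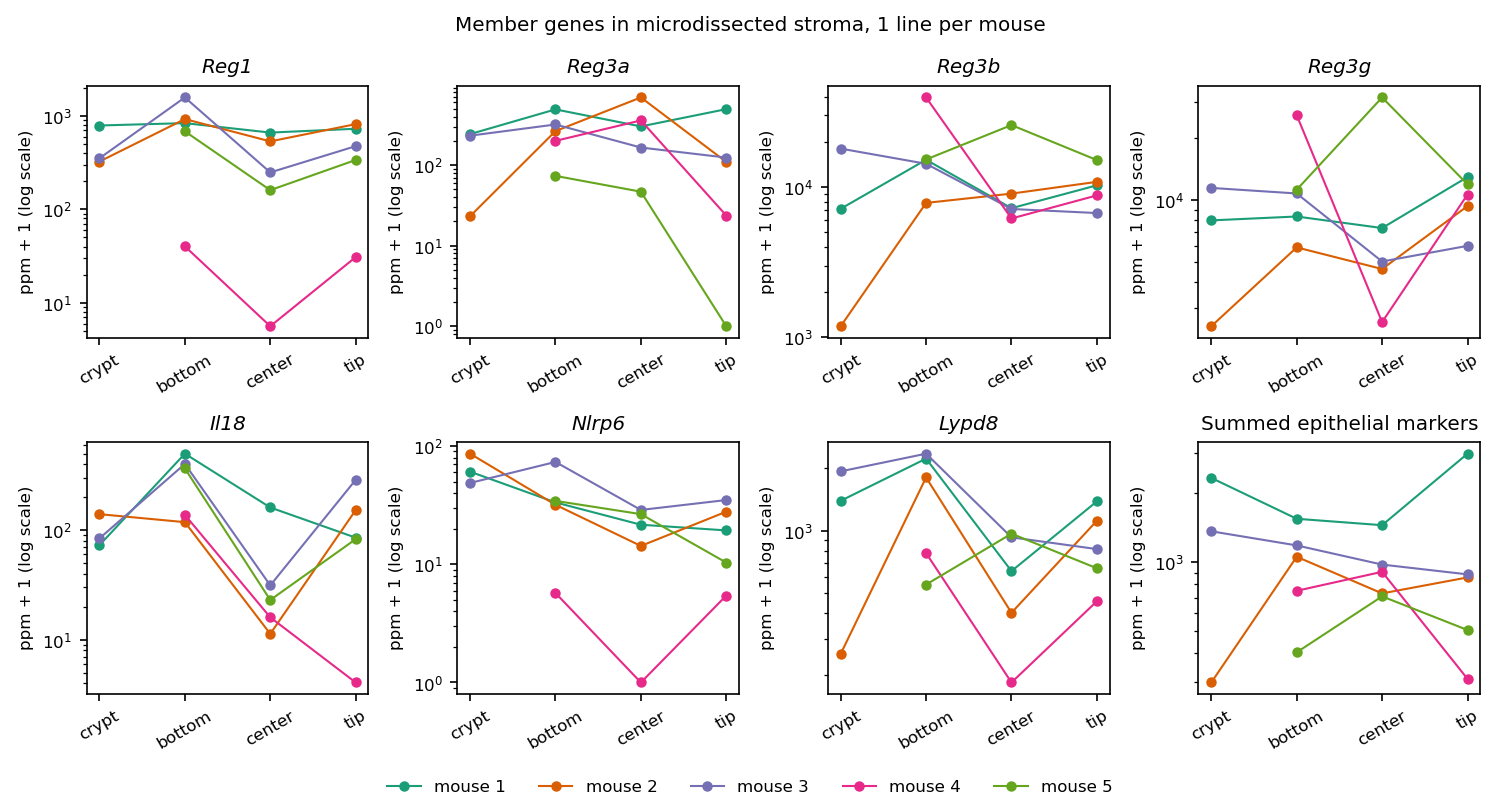
Level of each of the 7 genes over the 4 dissected zones, in ppm on a log axis, each line joining the zones of 1 mouse. Il18 was highest at the villus bottom in mice 1, 3, 4 and 5, and Nlrp6 was lower at the tip than in the crypt in each of the 3 mice that had both zones.

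From villus bottom to villus tip, all 7 members had a log2 fold change below 0, with a median of −0.70 beside −0.08 over all genes, and none passed the test. The 7 immune markers summed to 801 to 2461 ppm at the bottom and to 146 to 686 ppm at the tip, with no overlap, and the 6 mesenchymal markers to 78.9 to 315 ppm and 40.2 to 421 ppm. Their part in the values of the members was not tested. Il18 was at 499, 117, 402, 137 and 366 ppm at the bottom of mice 1 to 5 and at 84.5, 152, 287, 3.06 and 81.8 ppm at the tip. It was lower at the tip in 4 of 5 mice and the ranges overlapped, with a log2 fold change of −1.98 ± 0.78 (SE, limma, p = 0.0214, adjusted p = 0.568). Reg3a was at 490, 263, 318, 199 and 72.5 ppm at the bottom and at 494, 108, 123, 22.6 and 0 ppm at the tip. It was lower at the tip in 4 of 5 mice and about equal in mouse 1, with a log2 fold change of −2.38 ± 0.85 (limma, p = 0.0126, adjusted p = 0.526). Reg3a is listed at 0 at the tip of mouse 5, and without that mouse the value was −1.43 (unadjusted p = 0.0999, limma). Reg1 was lower at the tip in 5 of 5 mice, at 810 ± 549 ppm (SD, n = 5) at the bottom and 476 ± 315 ppm at the tip (−0.70 ± 0.47, limma, adjusted p = 0.711). Lypd8 was lower at the tip in 4 of 5 mice, at 1540 ± 830 and 884 ± 368 ppm (−0.68 ± 0.52, limma, adjusted p = 0.749).

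Reg3b and Reg3g differed in how many mice had less at the tip. Reg3b was at 15199, 7839, 14291, 39538 and 15266 ppm at the bottom and at 10267, 10831, 6710, 8798 and 15126 ppm at the tip. It was lower at the tip in 4 of 5 mice, most in mouse 4 and least in mouse 5 (−0.67 ± 0.58, limma, adjusted p = 0.772). Reg3g was at 8331, 5894, 10783, 25929 and 11248 ppm at the bottom and at 12961, 9360, 5996, 10657 and 11949 ppm at the tip. It was higher at the tip in 3 of 5 mice (−0.15 ± 0.55, limma, adjusted p = 0.958). The ratio of Reg3g to Reg3b ranged from 0.548 to 0.755 at the bottom and from 0.790 to 1.26 at the tip, and the nearest values, 0.755 and 0.790, were close. The crypt (0.636 to 2.06) and the villus center (0.413 to 1.22) overlapped both zones. It was noticed in the data and was not tested.

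Nlrp6 was the only member whose mean was highest in the crypt, at 64.2 ± 19.1 ppm (SD, n = 3). It was at 59.7, 85.2 and 47.7 ppm in the crypt of mice 1 to 3, at 32.4, 30.9, 72.4, 4.72 and 33.4 ppm at the villus bottom, at 20.6, 13.3, 27.8, 0 and 25.6 ppm in the villus center and at 18.3, 26.9, 34.0, 4.44 and 9.33 ppm at the tip. It was lower at the tip than at the bottom in 5 of 5 mice (−0.77 ± 0.58, limma, adjusted p = 0.747). The tip values lay below all crypt values, which held for 1.81% of the genes tested, and the test across all genes did not call the difference, at −1.26 (limma, adjusted p = 0.9995, tip over crypt). From crypt to villus bottom, the other 6 members had a log2 fold change above 0, with 2.14 for Reg3a, 2.05 for Il18, 1.41 for Reg1, 1.30 for Reg3b, 1.02 for Lypd8 and 0.57 for Reg3g, and Nlrp6 was at −0.49, each with an adjusted p of 0.9998 (limma). The median of the 7 was 1.30 beside 0.06 over all genes. Between tip and crypt the members were at 0.71 (Reg1), 0.62 (Reg3b), 0.42 (Reg3g), 0.33 (Lypd8), 0.07 (Il18), −0.24 (Reg3a) and −1.26 (Nlrp6). Only mice 1 to 3 had a crypt sample, while the fit used all mice. In those 3 mice, Il18 was higher at the tip in 3, Reg1, Reg3a, Reg3b and Reg3g in 2, Lypd8 in 1 and Nlrp6 in 0. For Reg3a and Lypd8 these counts go against the sign of the fit.

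The spread between single sections is given for the same genes, although the differences above are between means over mice. 2 sections of the same zone and mouse (11 such pairs) differed by a median of 1.35 on the log2 scale for Reg3b, 1.49 for Reg1, 1.65 for Reg3g, 1.94 for Il18, 2.03 for Lypd8, 2.28 for Nlrp6 and 5.50 for Reg3a. Over the 18 profiles, the log2 levels had a Pearson correlation of 0.85 between Reg3b and Reg3g. With the sum of the 4 epithelial markers the correlation was 0.65 for Reg3a, 0.63 for Lypd8, 0.36 for Reg1, 0.26 for Il18, 0.20 for Reg3b, 0.18 for Nlrp6 and 0.11 for Reg3g. Relative to that marker sum, all 7 members were still below 0 from bottom to tip. Between tip and crypt, Reg3a was at 0.37 and Lypd8 at −0.12 relative to that sum, opposite in sign to the fit. These values are paired means over the 3 mice with both zones, while the fit used all mice. Before that scaling, Reg3a was already higher at the tip in 2 of these 3 mice and Lypd8 in 1. The changes of sign are therefore not read as an effect of the scaling.

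Among the genes around the members, none was called between tip and bottom. The other epithelial antimicrobial genes had a median of 0.47 over 17 tested, opposite in sign to the members, and the lowest unadjusted p-values were those of the acute phase gene Saa1 (2.41), the peptidoglycan binding Pglyrp1 (1.94), the immunoglobulin transporter Pigr (−1.41) and the lectin Zg16 (−1.15), with adjusted p-values of 0.526 to 0.677 (limma). The inflammasome and interleukin 18 arm had a median of −0.04 over 15 tested, led by Casp8 (−2.28). The interleukin 22 and STAT3 arm had a median of −0.08 over 8 tested, led by Myd88 (−1.19), and Reg2, a lectin of the same block, was at 1.14 (limma, adjusted p = 0.613).

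In the single-cell libraries, 2347 of 12346 wells passed the filters and 1215 of them, from 8 mice and 31 plates, had at least 1 UMI of Epcam and are called epithelial cells. The sorts were aimed mainly at the stroma, and 649 of these cells came from the PDGFRa singlet gate, although only 5 of the 1215 had a UMI of Pdgfra and 3 had one of Ptprc. The 384 well barcodes are used again on each plate, so that barcodes are shared between plates by design and cells were told apart by plate. No doublet caller was run. Shares below carry exact 95% Clopper-Pearson intervals that cover counting error only.

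Reg3b and Reg3g were found in most epithelial cells. Reg3g was detected in 87.1% of the 1215 cells (85.1% to 88.9%) and Reg3b in 84.5% (82.4% to 86.5%), at a median of 2061 UMIs per cell. Over the 8 mice the shares ranged from 68.4% to 92.6% for Reg3g and from 72.2% to 96.3% for Reg3b. The shares pool cells of several sort gates, which were not the same in each mouse. In the 52 cells of the CD45 singlet gate, all from 1 mouse, Reg3g was detected in 48.1% and Reg3b in 40.4%. In the 649 cells of the PDGFRa singlet gate they were detected in 91.1% and 90.6%. Lypd8 was detected in 47.8% of cells (45.0% to 50.7%), Reg3a in 21.3% (19.0% to 23.7%), Nlrp6 in 19.3% (17.2% to 21.7%), Il18 in 16.5% (14.4% to 18.7%) and Reg1 in 13.7% (11.8% to 15.7%). In 124 cells with Pdgfra and without Epcam, at a median of 1095 UMIs, Reg3b was detected in 7.26%, Reg3g in 3.23%, Il18 and Lypd8 in 2.42% each, and Reg1, Reg3a and Nlrp6 in 0 of 124 cells (exact interval up to 2.93%, for cells with a UMI and not for cells that express the gene). In 37 cells with Ptprc and without Epcam, at a median of 964 UMIs, Reg3g and Lypd8 were detected in 8.11% each (1.70% to 21.9%). Reg3b was detected in 5.41% of them (0.661% to 18.2%), and Reg1, Reg3a, Il18 and Nlrp6 in 0. The shares in the Pdgfra cells and the Ptprc cells stand as the background of the epithelial shares, since no background was subtracted. With each cell thinned to 400 UMIs, the epithelial shares were 68.2% for Reg3g, 66.9% for Reg3b, 25.5% for Lypd8, 5.88% for Reg3a, 5.48% for Reg1, 4.43% for Nlrp6 and 3.41% for Il18, and those of the Pdgfra cells were 3.21% for Reg3b, 1.80% for Reg3g, 1.24% for Lypd8 and 0.666% for Il18. Those of the Ptprc cells were 5.04% for Lypd8, 4.15% for Reg3g and 3.05% for Reg3b.

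The members differed in how their UMIs were spread over cells. The 122 cells with the most UMIs of a gene, 10% of all, held 95.4% of the UMIs of Reg1, 76.4% of Il18, 74.6% of Reg3a, 72.2% of Nlrp6, 62.5% of Lypd8, 53.5% of Reg3b and 46.7% of Reg3g. The genes differed in depth, from 330 UMIs for Il18 to 33824 for Reg3b, and Reg1, with 959 UMIs, was more concentrated than Reg3a with 642, Nlrp6 with 406 and Il18 with 330. The cells were pooled over mice, and the 79 cells of sort mouse 8 held 337 of the 959 UMIs of Reg1. How far differences between mice enter this concentration was not tested. Reg3b reached 9.30% of all UMIs of a cell and passed 5% in 20 cells.

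Across cells, Reg3b and Reg3g again went together. Their Spearman correlation within a mouse, over the 7 mice with enough cells, had a median of 0.83 and ranged from 0.56 to 0.91, as a description over cells that share a library and a depth. The other pairs that include Reg3b or Reg3g had medians of 0.08 to 0.44. Reg3a was found almost only in cells with both lectins, since 257 of its 259 cells had Reg3b (99.2%) and 257 had Reg3g, against 80.5% and 83.8% of the cells without Reg3a. Il18 and Nlrp6 were much alike in this, and Reg1 less so. Of the 200 cells with Il18, 195 had Reg3b and 194 had Reg3g, and of the 235 with Nlrp6, 227 and 223 did. For Reg1 these were 152 and 149 of 166 cells (91.6% and 89.8%), beside 83.4% and 86.7% of the cells without Reg1. The counts were not matched for the depth of the cells. The highest correlation of Reg3a was with Lypd8, at a median of 0.42. Reg1 was at 0.10 with Reg3b and 0.08 with Reg3g. The ratio of Reg3g to Reg3b UMIs ranged from 0.419 to 1.09 over the 8 mice.

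**Figure D4:**
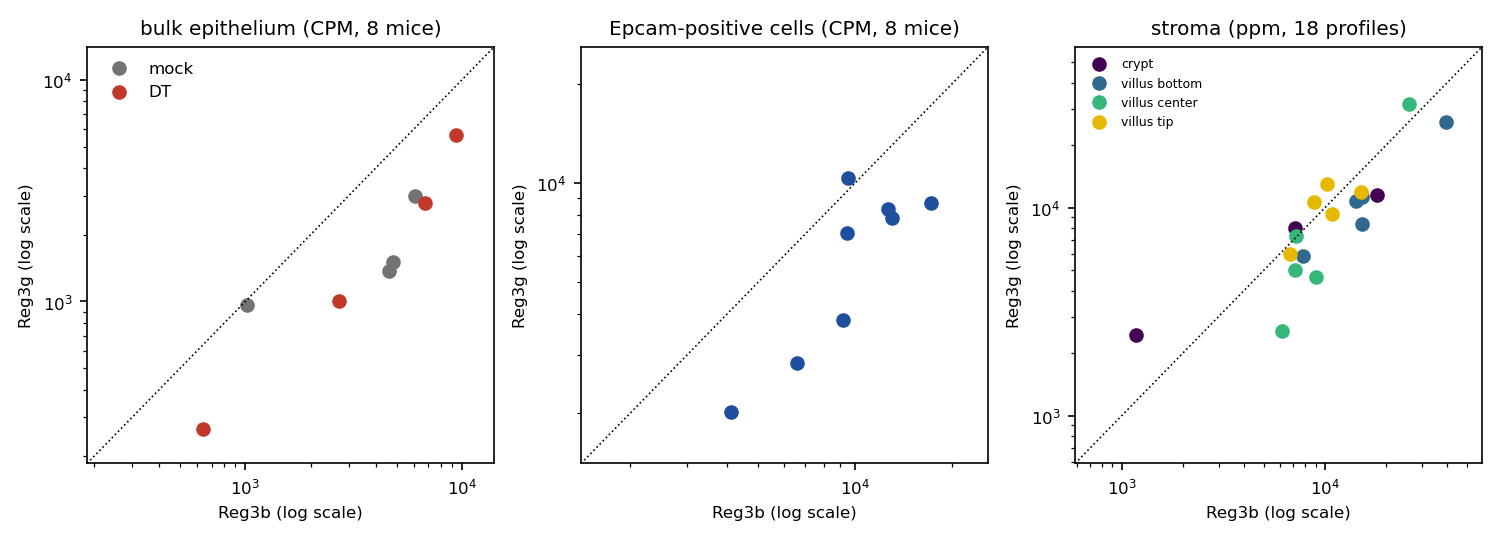
Reg3g against Reg3b in bulk epithelium (CPM), dissected zones (ppm) and the epithelial cells of each sorted mouse (CPM), on log axes. The log2 levels had a correlation of 0.96 over the 8 bulk samples, centred on batch, and of 0.85 over the 18 zone profiles.

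Epithelial cells were then divided by the UMIs of a list of villus tip genes (Ada, Nt5e, Slc28a2, Creb3l3 and Apoa4) and a list of 11 stem and cycling genes of the crypt, into 1013 tip-range cells with more of the former, 83 crypt-range cells with more of the latter and 119 other cells with equal numbers, of which 106 had no UMI of either list. These are ranges of a score and not cell types. 62 tip-range cells and 28 crypt-range cells lay 1 UMI from the cut, and the median cell had 18 UMIs of the tip list in the tip range and 3 of the crypt list in the crypt range. Apoa4 gave 83.8% of the UMIs of the tip list. 6 enterocyte markers summed to 37723 CPM in tip-range, 12659 CPM in other and 3601 CPM in crypt-range cells, whose median depths were 2025, 1563 and 3834 UMIs. UMIs were summed per mouse and range where at least 5 cells were present, giving 8, 6 and 3 mice. The sums were compared with edgeR, with TMM scaling and the mouse as a block. The CPM of cells are UMIs relative to the total UMIs of the same cells, without TMM scaling. Differences between these CPM therefore need not match the log2 fold changes of the fit.

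**Figure D5:**
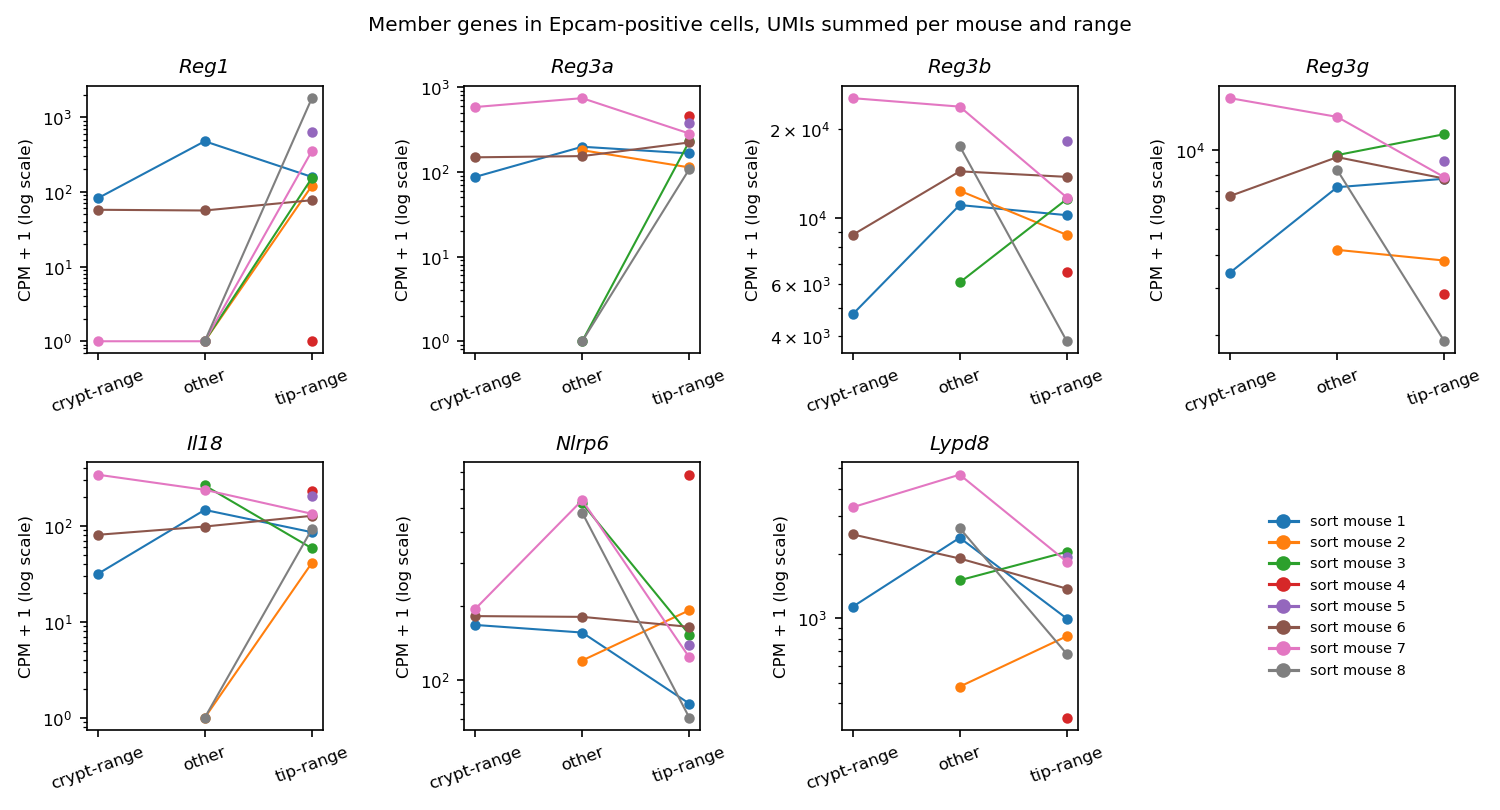
Level of each of the 7 genes in crypt-range, other and tip-range epithelial cells, in CPM of the summed UMIs, each line joining the ranges of 1 sorted mouse with at least 5 cells. Reg1 was higher in tip-range than in crypt-range cells in all 3 mice with both, and Nlrp6 and Lypd8 were lower.

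Between tip-range and crypt-range cells, edgeR called 1012 of 2317 genes (43.7%), 473 higher (20.4%) and 539 lower (23.3%), and 1 of the 7 members, Reg1, was called. Reg1 was at 80.9, 56.7 and 0 CPM in the crypt-range cells of mice 1, 6 and 7, where it had 16, 5 and 0 UMIs, and at 158, 76.5 and 352 CPM in their tip-range cells, with 155, 28 and 232 UMIs. It was higher in 3 of 3 mice, and mouse 7, with 5 crypt-range cells, differed most. The log2 fold change was 2.27 ± 0.89 (SE, 95% interval 0.45 to 4.09, edgeR, adjusted p = 0.0389), beside a median of 0.20 over all genes. The call depended on the settings, as the adjusted p was 0.0821 with DESeq2, 0.0712 with relative log expression scaling and 0.124 without the mouse block. With Apoa4 taken out of the tip list the direction turned, at −0.25 (adjusted p = 0.789). The call was also lost without mouse 2, 3, 5 or 8, at adjusted p-values of 0.0557 to 0.104, and over all 15 alternatives the adjusted p ranged from 0.00115 to 0.789.

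The other members did not pass the test. Reg3b was at 4740, 8775 and 25326 CPM in the crypt-range cells of mice 1, 6 and 7 and at 10228, 13762 and 11727 CPM in their tip-range cells. It was higher in the tip range of mice 1 and 6 and lower in mouse 7 (0.47 ± 0.46, edgeR, adjusted p = 0.432). Reg3g did the same, at 3430, 6678 and 15641 CPM against 7758, 7772 and 7863 CPM (0.35 ± 0.44, edgeR, adjusted p = 0.551). Reg3a (0.51, adjusted p = 0.415) and Il18 (0.46, adjusted p = 0.525) were higher in 2 of 3 mice. Nlrp6 was at 167, 181 and 194 CPM in the crypt range and at 79.5, 164 and 123 CPM in the tip range. It was lower in 3 of 3 mice, and the difference did not pass the test (−0.57 ± 0.47, edgeR, adjusted p = 0.334). Without Apoa4 in the tip list it did, at −0.96 (adjusted p = 0.0220). Lypd8 was also lower by CPM in 3 of 3 mice, at 1128, 2460 and 3293 CPM against 994, 1372 and 1833 CPM. In the TMM-scaled fit its log2 fold change was −0.17 ± 0.39 (edgeR, adjusted p = 0.764).

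Between tip-range and other cells, edgeR called 630 of 2317 genes (27.2%), 328 higher (14.2%) and 302 lower (13%), and no member. Reg1 was at 1.43 ± 0.68 and higher in 5 of 6 mice (edgeR, adjusted p = 0.122). In mice 2, 3, 7 and 8 the other cells, 11, 13, 18 and 5 in number, had 0 UMIs of Reg1, and in mouse 6 they had 4. Mouse 1, with 46 UMIs of Reg1 in its other cells, went the other way, at 477 CPM against 158 CPM in tip-range cells. Nlrp6 was at −0.78 ± 0.40 and lower in 5 of 6 mice (edgeR, adjusted p = 0.126). Reg3b and Reg3g were both at 0.00, with 95% intervals of −0.68 to 0.67 and −0.64 to 0.65. By CPM, which is not TMM-scaled here, Reg3b was higher in tip-range cells in only 1 of 6 mice and Reg3g in 2 of 6. Between other and crypt-range cells, 11 genes were called (0.475%), 4 higher (0.173%) and 7 lower (0.302%), and the 7 members were all above 0, with a median of 0.35 beside −0.13 over all genes, and none passed the test. The scale of these comparisons moved with the normalization. Under relative log expression scaling, the median of all genes went from 0.20 to −0.15 between tip-range and crypt-range cells and from 0.23 to −0.08 between tip-range and other cells, and the share of calls that were higher in tip-range cells went from 46.7% to 34.2% and from 52.1% to 30.9%. Reg3g turned to −0.06 and −0.38 in these comparisons under that scaling, and Nlrp6 was called between tip-range and other cells (−1.10, adjusted p = 0.0230).

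The level of Reg1 differed between sort gates. In the 45 cells of the EPCAM singlet gate, all from mouse 8, Reg1 was detected in 57.8% of cells at 1768 CPM, with Reg3b at 3699 CPM and Reg3g at 1282 CPM. In the 649 cells of the PDGFRa singlet gate, from 6 mice, Reg1 was detected in 9.55% at 172 CPM, with Reg3b at 13179 CPM and Reg3g at 8498 CPM. Reg1 was also high in the triple negative gate (10 cells, 1719 CPM), the PDGFRa big gate (37 cells, 767 CPM) and the CD45 singlet gate (52 cells, 632 CPM). It was at 246 CPM in the EPCAM PDGFRa doublet gate, 86.6 CPM in the NT5E PDGFRa doublet gate and 82.9 CPM in the PDGFRa small gate. Over all epithelial cells, Reg1 ranged from 0 CPM in mouse 4, which had 8 cells, to 1749 CPM in mouse 8. Within mouse 8, the 34 cells of the EPCAM PDGFRa doublet gate had Reg1 at 1685 CPM, close to the EPCAM singlet gate, but only in 4 cells (11.8%, 3.30% to 27.5%), 1 of which held 39 of the 75 UMIs. Their median depth was 742 UMIs, beside 2306 UMIs in the EPCAM singlet gate, and Reg3b was at 5505 CPM and Reg3g at 4449 CPM.

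Among the genes around the members, the inflammasome arm was split. Of 7 tested between tip-range and crypt-range cells, Gsdmd, the pore-forming protein cleaved by inflammatory caspases, was higher (2.64 ± 0.53, edgeR, adjusted p = 6.81e-06) and Pycard, the adaptor of Nlrp6, was lower (−1.97 ± 0.43, edgeR, adjusted p = 4.08e-05). Both were called in 15 of 15 alternatives, but Gsdmd ranged from 1.18 to 4.76 over them and was lowest without Apoa4 in the tip list (edgeR, adjusted p = 0.0124). Casp1 was at 0.03 (edgeR, adjusted p = 0.970). Of 8 other epithelial antimicrobial genes tested, 5 were higher and 2 lower, with a median of 2.16. Of the 7 calls, that of Pigr (1.01) held in 6 of 15 alternatives and that of Pglyrp1 (−1.32) in 8 of 15, and Nos2 (3.91) was tested in 12 and called in 11. The lowest p-values were those of Sprr2a2 (3.64), Sprr2a3 (3.56) and Sprr2a1 (3.31), near-identical small proline-rich genes between which UMIs may be split, and of Dmbt1 (−2.52), a scavenger receptor that binds bacteria. Without Apoa4 in the tip list, Sprr2a2 was at 1.84, Sprr2a3 at 1.61 and Sprr2a1 at 1.77, all still called, and Pigr was at 0.38 (edgeR, adjusted p = 0.193). Since 43.7% of all genes were called in this comparison, these counts are not read as particular to the lists.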

How the data were processed

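Bulk epithelium was deposited as unnormalized UMI counts per gene, which the authors made from mcSCRBseq reads aligned to GRCm38.84 and counted with zUMIs (bcl2fastq 2.15.0.4 is named in the submitters' processing notes, with no role given). The single-cell counts were deposited per well, from MARS-seq reads processed by the authors with zUMIs, before any filter. The LCM values are TPM, deposited by the authors after kallisto pseudoalignment to coding transcripts of GRCm38.94.

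The 7 genes and the gene lists were chosen with earlier results of these data known. Genes named beside the 7 are list genes that passed the test, or the 4 of a list with the lowest p where none or more than 4 passed (fewer are printed for the LCM zones), and the 3 genes closest to each member in bulk. Batches are those of the study's supplementary sample list.

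Bulk counts were filtered as the study states (above 1e-05 of the UMIs of a sample in at least 2 samples) and tested with edgeR 4.0.16 (TMM, robust glmQLFit, batch term) in R 4.3.3, with Benjamini-Hochberg adjustment. UMIs were counted once each, so that depth, 748458 to 4210158 UMIs per library, sets the counting error. The replicate numbers of DT and mock mice pair the samples by their deviations from the group means (correlations of 0.604, 0.409, 0.652 and 0.584), which within batches were −0.143 and −0.0648, so that the shared number followed the batch.

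For LCM, the sections of 1 zone in 1 mouse were averaged, and ppm were computed over genes that are neither abundant in enterocytes (378 genes among those that make up 50% of the mock UMIs) nor above 1% of the sample. Genes above 5 ppm in a zone mean were tested as log2(ppm + 1) with limma 3.58.1 and the mouse as a block. Fold changes on this scale understate the change of low genes. The study's subtraction of the mean of the empty wells of each plate was not applied here, since those wells are not named in the sources used. Kept cells had 400 to 8000 UMIs and at least 250 genes, and sums per mouse and range were tested with edgeR. 352 wells of a plate without a sample label were not used. DESeq2 1.42.0 was an alternative, and scripts were tested on simulated data. In bulk, p-values rest on the spread between mice of the same group and batch. With the mouse as a block, those of LCM and cells rest on how zone or range differences vary between mice.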

Additional observations from a re-analysis of the deposited data

Results flagged for a closer look

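In groups of 4 to 10 mice, a highest or lowest value was singled out when its gap to the next value was large beside the range of the group (Dixon's criterion at the 95% level). Chance meets it in about 1 of 20 groups only where values are normally distributed. The values used were not on a log scale, so that the number singled out is not read against that rate. Of 51 groups tested, 10 were singled out, each for its highest value. Among the microdissected zones, Reg3b reached 39538 ppm at the villus bottom of mouse 4, the next mouse being at 15266 ppm, and 25871 ppm in the villus center of mouse 5, the next being at 9041 ppm. Reg3g was highest in the same samples, at 25929 ppm at the villus bottom of mouse 4 (next 11248 ppm) and at 31624 ppm in the villus center of mouse 5 (next 7319 ppm). The 2 lectins are not independent, since they rose and fell together, and each of these values is that of 1 section. Reg3a reached 494 ppm at the villus tip of mouse 1 (next 123 ppm), and Il18 reached 160 ppm in the villus center of mouse 1 (next 30.3 ppm). Mouse 1 also had the highest share of enterocyte genes, 41.0% at the tip.

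Among single cells, Reg1 was at 477 CPM in the other epithelial cells of sort mouse 1, the next of 6 mice being at 55.4 CPM, and at 1802 CPM in the tip-range cells of sort mouse 8, the next of 8 mice being at 631 CPM. Reg3a was at 740 CPM in the other cells of sort mouse 7 (next 197 CPM), which were 18 cells with 22 UMIs of the gene. Nlrp6 was at 683 CPM in the tip-range cells of sort mouse 4 (next 192 CPM), which rests on 6 UMIs in 1 of 8 cells.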

How the results depend on the processing

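Of 679 values of the members under an alternative, 597 kept their direction and their side of the threshold, 7 lost a call, 11 gained one and 64 changed sign, and the cause was not tested. After DT, the count of 32 genes called was 159 with DESeq2, 635 without a filter, 1 without the batch term, 0 in batch a alone, 5 in batch b alone and 3 with the replicate block. The replicate block turned Reg3b to −0.079 and Reg3g to −0.10 and changed no call of a member. Nlrp6 turned to 0.041 with library totals and to 0.40 in batch b. Leaving out 1 mouse gave 3 to 41 calls, and −0.42 to 0.90 for Reg3a, −0.86 to 0.82 for Reg3b, −0.68 to 0.87 for Reg3g and −0.19 to 0.20 for Nlrp6.

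In the LCM zones no member changed sign between bottom and crypt. Between tip and crypt, Reg3a turned to 0.11 with a pseudocount of 10 ppm. Relative to the epithelial markers, and over only the 3 mice with both zones, Reg3a was at 0.37 and Lypd8 at −0.12. Without the replicate block Reg1 turned to −0.53, Il18 to −0.52 and Lypd8 to −0.10. With the block as a random effect Il18 turned to −0.25. 1 gene was called without a filter. Leaving out 1 mouse gave −1.41 to 0.34 for Reg3a, −0.55 to 1.60 for Reg3b, −0.24 to 1.01 for Reg3g, −0.49 to 0.59 for Il18 and −0.50 to 0.98 for Lypd8, and between tip and bottom 0 to 4 calls and −0.35 to 0.14 for Reg3g.

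Between tip-range and crypt-range cells, 632 genes were called with Apoa4 taken out of the tip list, and Reg1 turned to −0.25 and Reg3a to −0.18. Reg3g turned to −0.058 with DESeq2, to −0.061 with relative log expression scaling and to −0.18 without the replicate block, Reg3b to −0.018 without the block, and Lypd8 to 0.39 without a filter. When a cell needed 2 more UMIs of a list, Reg3a (1.95, edgeR adjusted p = 0.0159) and Reg3b (1.01, 0.0380) were called. Leaving out 1 mouse gave 436 to 1126 calls and −0.27 to 0.23 for Lypd8.

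Between tip-range and other cells, without Apoa4 160 genes were called and Reg1 turned to −0.20, Reg3a to −1.02 (edgeR adjusted p = 0.0245) and Reg3g to −0.41. Reg3a turned to −0.087 with DESeq2, −0.12 with relative log expression and −0.089 with 2 more UMIs, and Reg3g to −0.37, −0.38 and −0.17, and to −0.13 without the replicate block. Without a filter Reg3b was at 0.42, Il18 at 0.20 and Lypd8 at 0.17, and with cells of 200 UMIs and 100 genes Reg3b was at 0.26. Reg1 was called without a filter (1.84), with those cells (1.60), without sort mouse 1 (3.45) and without sort mouse 6 (2.30). Leaving out 1 mouse gave 260 to 618 calls, −0.18 to 0.52 for Reg3a, −0.34 to 0.12 for Reg3b and −0.21 to 0.11 for Reg3g.

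Between other and crypt-range cells, the 11 calls were 4 with DESeq2, 21 with relative log expression, 28 without a filter, 20 with cells of 200 UMIs and 100 genes, 146 without Apoa4, 198 with 2 more UMIs and 4 without the replicate block. Reg1 turned to −0.050 and Nlrp6 to −0.27 without Apoa4, and Reg3g to −0.052 and Lypd8 to −0.23 without the block. Leaving out 1 mouse gave 3 to 36 calls, −1.24 to 1.45 for Reg1, −0.020 to 0.73 for Nlrp6 and −0.089 to 0.37 for Lypd8. Thinning to 400 UMIs lowered the shares of cells to 68.2% for Reg3g, 66.9% for Reg3b, 25.5% for Lypd8, 5.88% for Reg3a, 5.48% for Reg1, 4.43% for Nlrp6 and 3.41% for Il18.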
